A study of Mus musculus with 4 samples.

Results

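Keratinocytes chosen as basal cells of the interfollicular epidermis were examined 1 week after ablation of ΔNp63. They were chosen by limits on transcript counts, and 2842 cells met these limits: 2555 control and 287 ablated cells, out of 109216 cell barcodes deposited over the whole study. Levels rest on UMIs, the molecular tags by which each captured RNA molecule is counted once. A cell needed 3000 or more gene UMIs, 15% or fewer mitochondrial UMIs, at least 20 UMIs of Krt5 and Krt14 together per 10000, and at least 2 times as many Krt5 and Krt14 UMIs as Krt1 and Krt10 UMIs. It also needed no UMI of the leukocyte gene Ptprc, fewer than 3 UMIs of the hair follicle bulge genes Cd34, Krt24, Postn and Lgr5, and fewer than 4 UMIs of Moxd1, Fst, Sostdc1 and Aldh3a1. The last limits were fewer than 2 UMIs of Krt79 and fewer than 10 Krt8 UMIs per 10000. Because measured counts selected the cells, the levels of these genes are given only as a description.

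Cells of adult mouse back epidermis were captured in droplets and sequenced as 4 single-cell libraries, 1 for each group. Control mice were DNp63fl/fl, with floxed ΔNp63 alleles and no Cre in the label, and ablated mice were DNp63fl/fl;K14-CreT2, in which a tamoxifen-dependent Cre is driven by the keratin 14 promoter and so acts in basal keratinocytes. Tamoxifen was given to both genotypes by gavage at 200 mg/kg daily for 5 days, and cells were taken 1 day or 1 week after ablation. The ages spanned 2 to 17 months with males and females in equal numbers, and the epidermis was released in 0.25% trypsin at either 4 °C or 37 °C. The labels do not give the animals, ages or digestion behind a single library. The 1-week libraries used a 5′ kit and the 1-day libraries a 3′ kit, so each ablated library was set against the control of its own time. With 1 library in each group there was no replicate check and no test was possible. All 95% intervals below cover counting error only and say nothing of differences between animals.

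The basal layer is the inner, dividing layer of the epidermis, attached to the basement membrane by hemidesmosomes. Cells that leave it switch from keratins 5 and 14 to keratins 1 and 10 in the spinous layer and then make loricrin, filaggrin and the other proteins of the cornified envelope. The transcription factor p63 is needed for this epithelium to form and persist. Its gene Trp63 has an upstream promoter for the TA isoforms, which carry a transactivation domain, and an internal promoter for the ΔN isoforms, which are the main forms in basal keratinocytes.

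The start of the 2 coding sequences is shown because it is where the ablated ΔN form differs from the TA form of the same gene. Trp63 lies on the plus strand of chromosome 16 (GRCm38). In the GENCODE annotation the ΔN transcripts begin with an exon at chr16:25801916-25802101, of which bases 25802060 to 25802101 are coding. A TA transcript begins with an exon at chr16:25683765-25684351, coding from 25684290 to 25684351. Capitals mark the start codon.
ΔN first coding exon: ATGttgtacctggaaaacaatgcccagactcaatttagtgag
TA first coding exon: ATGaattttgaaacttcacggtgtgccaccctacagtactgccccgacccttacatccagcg
The deposited counts are per gene, so a Trp63 UMI below can come from either kind of transcript.

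The limits left a much smaller share of the ablated library. They kept 10.2% of 25039 control barcodes and 1.56% of 18413 ablated barcodes. The depth limit left 33.9% of control and 22.2% of ablated barcodes. After the limits on depth, mitochondrial UMIs and keratins, 4959 control and 3041 ablated cells remained. The follicle genes then removed more of the ablated cells: the bulge limit left 3780 and 1745, the limit on Moxd1, Fst, Sostdc1 and Aldh3a1 left 2913 and 1049, and the Krt79 limit left 2555 and 461. The Krt8 limit took away no control cell and 174 ablated cells. Krt8 is a keratin of simple epithelia. Just inside this limit an ablated cell held 9.92 Krt8 UMIs per 10000, and just outside it another held 10.02, while the highest control value was 3.13. The nearest cells on either side of the depth limit held 3000 and 2999 UMIs (control) and 3001 and 2997 UMIs (ablated). For Krt5 and Krt14 together, the nearest values were 20.2 and 19.0 per 10000 (control) and 20.7 and 19.4 (ablated).

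**Figure D1:**
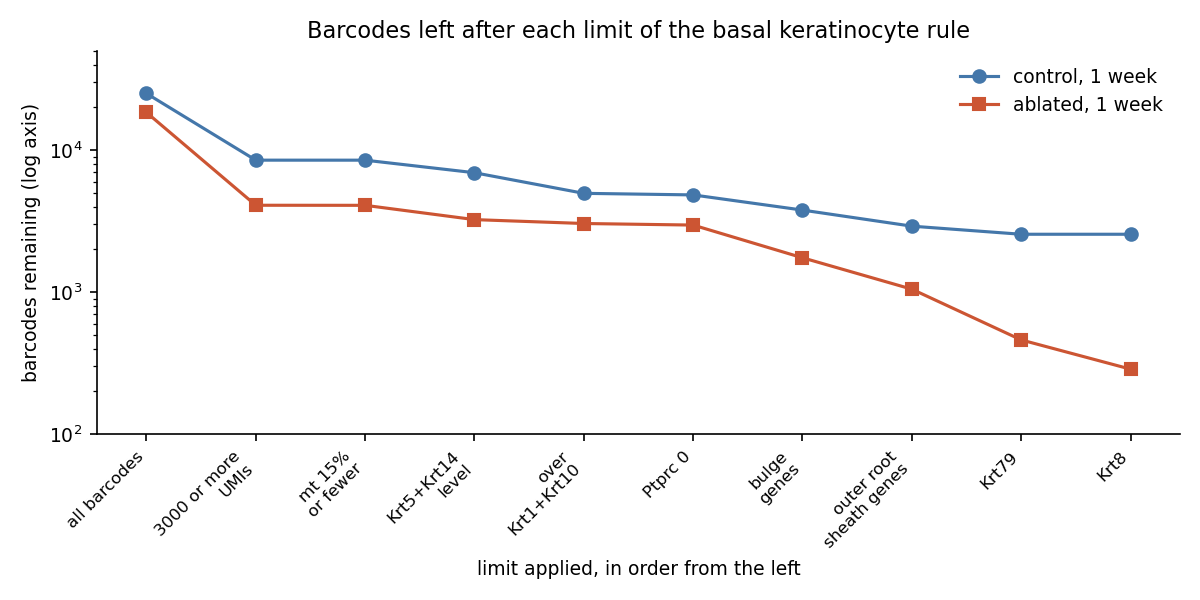
The y axis gives the barcodes remaining on a log axis and the x axis the limits in the order applied, for the control (circles) and ablated (squares) 1-week libraries. The 2 lines part at the depth limit (8490 and 4088 cells left) and again at the follicle gene, Krt79 and Krt8 limits, and end at 2555 and 287 cells.

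Depth and makeup differed between the 2 sets of cells. The control cells held 19132617 UMIs, with a median of 7068 per cell. The ablated cells held 3724547 UMIs, with a median of 7615, but the 61 of them at 20000 UMIs or more supplied 54.7% of the total, against 2.69% from 21 such control cells. Ratios with each cell weighted equally are therefore given beside the results they take across 2-fold, and beside some others. The highest Scrublet doublet scores, taken for 5016 control and 2712 ablated barcodes, fell on 9.86% of the chosen control and 18.1% of the chosen ablated cells, which were kept. The libraries shared 661 barcodes, 3 of them among the chosen cells. Markers of other cell types were also summed. The 10 T cell genes summed to 20.9 CPM (UMIs scaled to a total of 1000000) in control and 22.3 CPM in ablated cells, and 10 fibroblast genes to 36.6 and 12.6 CPM. Sums of follicle and gland markers were higher in ablated cells. Hair matrix and inner root sheath genes, 10 in number, summed to 19.2 and 783 CPM, with Krt73 and Krt35 at 0 in both; Tchh alone stood at 4.02 and 755.5 CPM. The 5 bulge genes outside the limits summed to 95.7 and 256 CPM. That rise came from Sox9 alone, at a log2 ratio of 2.36, and the other bulge genes together were not higher. The 10 sebaceous gland genes summed to 166 and 340 CPM, but Scd3, Awat1 and Mc5r had no UMI in ablated cells. In control cells none of the 10 was at 0. Of the 10 Merkel cell markers 4 had no UMI in control and 6 had none in ablated cells, with Atoh1, Sox2 and Krt20 at 0 in both. The 9 Merkel cell markers outside the limits, thus without Krt8, still summed higher in ablated cells, at 0.836 CPM in control and 13.96 CPM in ablated cells. Erythrocyte genes stood at 67.3 CPM in control and 3.76 CPM in ablated cells. Their part in the differences below was not tested.

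Taken as a whole, the control cells fitted the name basal keratinocyte and the ablated cells did not. A subset of 260 control cells led by differentiation genes is given below. Over the 8 basal markers that the limits did not use, control cells summed to 12244 CPM and ablated cells to 2178 CPM. The spinous and granular markers outside the limits ran the other way, at 1736 CPM in control and 15515 CPM in ablated cells. Markers of the upper follicle and outer root sheath summed to 839.6 and 10776 CPM, nearly all of it Krt17. The ablated cells are therefore called by what chose them, their Krt5 and Krt14 counts. Among the genes of the limits, Krt5 was at 12632 CPM in control and 6014 CPM in ablated cells, Krt14 at 14454 and 18962 CPM, and Krt1 at 237 and 1335 CPM.

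Of 5688 genes with a mean of at least 20 CPM over both libraries and outside the limits, 553 (9.72%) were at least 2-fold higher in ablated cells and 481 (8.46%) at least 2-fold lower. These shares are the background for the list counts below that cover all genes past the filter. The lists were chosen with earlier results of these data known, so their counts are descriptions and no independent support. The median log2 ratio over all 5688 genes was -0.044. With cells weighted equally, and the filter applied to those means, the numbers became 496 higher and 254 lower. Of the 5688 genes, 4847 were at 20 CPM or more in both libraries, 481 in the ablated library alone and 360 in the control alone. Of the 4847 genes, 261 (5.38%) were 2-fold higher and 322 (6.64%) lower. These are the background for list counts among genes at 20 CPM or more in both libraries. List counts with cells weighted equally have no such background here.

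Trp63 was lower in the ablated cells and was still counted in some of them. It stood at 601 CPM (95% interval 589.9 to 611.9) in control and 108 CPM (97.6 to 119) in ablated cells, a log2 ratio of -2.48 (-2.62 to -2.33). It was -1.81 with cells weighted equally. After each cell was thinned to 3000 UMIs, 75.5% of control and 29.3% of ablated cells held a Trp63 UMI. Without thinning the shares were 91.8% and 47.4%. Immune cells, which should lack the gene, were set beside them. These held 3 or more Ptprc UMIs and fell short of the limit on Krt5 and Krt14 together. That choice leaves out immune barcodes with much keratinocyte RNA, so their Trp63 share can be too low as a background. At the same thinned depth 7.14% of 56 control and 5.56% of 36 ablated immune cells held a Trp63 UMI. Their median depths were 4597.5 and 6500.5 UMIs. Whether these UMIs came from free RNA or from doublets was not tested. Cells with 3 or more Trp63 UMIs were 27.0% of control (25.3% to 28.8%) and 5.92% of ablated cells (3.49% to 9.31%). The ablated share with 1 or more UMIs thus lay above the share of these few selected immune cells and below the control. Whether it lay above the background of free RNA and doublets was not tested.

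**Figure D2:**
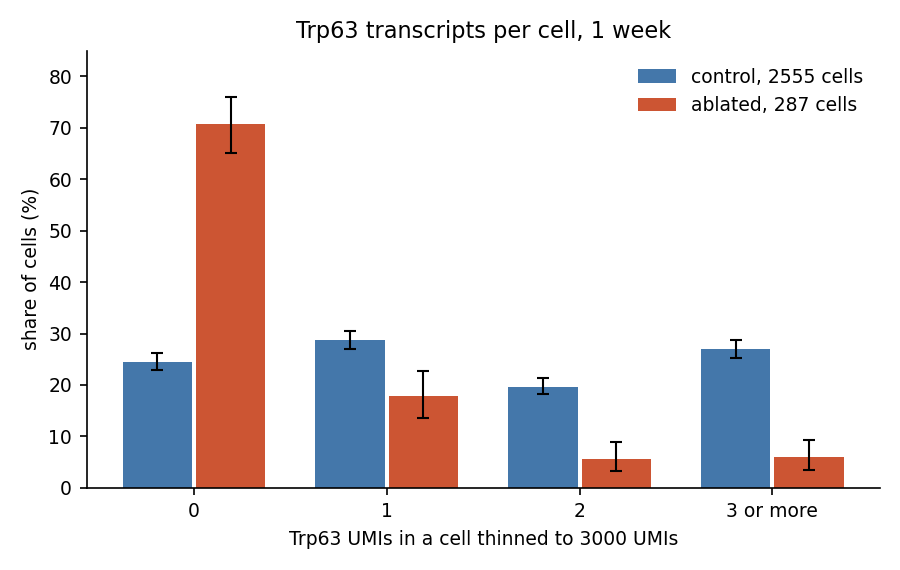
The y axis is the share of cells (%) and the x axis the number of Trp63 UMIs in a cell thinned to 3000 UMIs, with bars for 2555 control and 287 ablated cells and exact 95% binomial intervals. The ablated bar at 0 UMIs reaches 70.7% and the control bar 24.5%.

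Genes that anchor basal cells to the basement membrane were lower in the ablated cells. Of the 19 genes of this list, 15 passed the filter on low values; 11 of these were at least 2-fold lower and none was 2-fold higher, against a background of 8.46% lower. The median log2 ratio of the 15 was -1.26, and 2 of them passed the filter through the control library alone. Col17a1, the transmembrane collagen of hemidesmosomes, stood at 1490 CPM (1472 to 1507) in control and 264 CPM (247 to 281) in ablated cells. Its log2 ratio was -2.50 (-2.59 to -2.41). Dst, whose epithelial form links hemidesmosomes to keratin filaments, went from 1322 to 203 CPM and had the lowest ratio of the list at -2.70. Lamb3 and Lama3, which encode chains of the laminin that these structures bind, were at -2.19 and -1.10. Col7a1, the anchoring fibril collagen, had a log2 ratio of -2.44.

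The integrins of this list differed less than Col17a1. Itga3, the α3 chain of a laminin receptor, had a log2 ratio of -1.73, Itgb1 of -1.26, Itga6 of -1.21 and Itgb4 of -1.19. Itgb4, the hemidesmosomal β4 chain, stood at 365 CPM in control and 160 CPM in ablated cells. Fermt1, which activates integrins, was at -1.48. Plec, the plakin beside Dst in the plaque, was at -0.91 and did not reach 2-fold, and the tetraspanin Cd151 had the highest ratio of the list at -0.01 (-0.19 to 0.17). With cells weighted equally, 7 of the 15 genes were 2-fold lower; Itgb4 (-0.96), Lama3 (-0.92), Fermt1 (-0.77) and Itgb1 were then short of it. Col17a1, Dst and Lamb3 were at -1.98, -2.09 and -1.89.

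Junctions between cells did not share this pattern. Of 18 genes of cell-cell adhesion that passed the filter, 2 were 2-fold lower and 1 higher, with a median log2 ratio of 0.06. The lowest was Cdh3, the P-cadherin of basal cells, at -1.64, and the highest was the tight junction gene Cldn4 at 2.74 (200 CPM in control and 1333 CPM in ablated cells). Perp, a desmosome gene and p63 target, was at 0.42.

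Keratin 15 and secreted products of basal cells were among the lower genes with the highest control levels. Krt15, a keratin of the basal layer and the follicle, stood at 7244 CPM (7206 to 7282) in control and 982 CPM (950 to 1014) in ablated cells, a log2 ratio of -2.88 (-2.93 to -2.84). It was -1.67 with cells weighted equally, and Krt15 varied widely between ablated cells, as given below. Igfbp3, a secreted protein that binds insulin-like growth factors, stood at 2090 CPM in control and 68.2 CPM in ablated cells, with a log2 ratio of -4.94 (-5.12 to -4.76), or -3.97 with cells weighted equally. Of the 12 genes of the list of basal keratins and secreted proteins that passed the filter, 6 were 2-fold lower and 1 higher. The higher one was Bmp7, at 1.12, which passed the filter through the ablated library alone.

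The 12 lower genes with the interval bound farthest from 0 were Igfbp3, Cdh4, Ch25h, Guca2a, Ifi202b, Hlf, Il1r2, Dapl1, Snai2, Smoc2, Itga2 and Dio2. Ifi202b went from 1092 to 87.3 CPM. Itga2, the α2 chain of a collagen receptor, went from 126 to 10.5 CPM, and Snai2, a transcription factor of basal progenitors and mesenchymal cells, from 156 to 11.5 CPM. Il1r2, the decoy receptor for interleukin 1, went from 183 to 12.9 CPM; control immune cells held it at 1118 CPM. Hlf, a circadian transcription factor, stood at 50.8 CPM in control and 2.42 CPM in ablated cells. Cdh4 had the lowest ratio, at -5.69, from 3 UMIs in the ablated cells, so its interval ran down to -7.97.

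Reported targets of p63 were split. The list was compiled from background knowledge, but with earlier results of these data known. Of its adhesion genes, 5 also stand in the basement membrane list. Of 19 that passed the filter, 9 were 2-fold lower and 1 higher, with a median log2 ratio of -0.95. Of the 17 at 20 CPM or more in both libraries, 8 were lower and 0 higher. Outside adhesion, the lower ones included the fibroblast growth factor receptor Fgfr2 (-1.72), the Notch ligand Jag2 (-1.56) and the chromatin organiser Satb1 (-1.20, or -0.89 with cells weighted equally). Fgfr3 was at -0.95, Ovol1 at -0.01 and Klf4 at 0.74. Bmp7, given above, was the only one 2-fold higher.

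Transcription factors differed in both directions. Of 31 that passed the filter, 12 were 2-fold higher and 6 lower, and Trp63 was the lowest. Of the 28 at 20 CPM or more in both libraries, 10 were higher and 5 lower. Elf3, an ETS factor of differentiating epithelia, had the highest log2 ratio at 6.16 (5.82 to 6.51), from 3.97 CPM in control to 283 CPM in ablated cells, and it passed the filter through the ablated library alone. Grhl3, needed for the epidermal barrier, was at 3.08, Prdm1 at 3.14, and Barx2 at 2.58. The BMP target Id1 was at 2.41. Zfp750, a p63 target of late differentiation, was at 1.05 and Hopx at 1.23; both were short of 2-fold with cells weighted equally (0.91 and 0.93). Sox9, a follicle stem cell factor, stood at 40.3 CPM in control and 208 CPM in ablated cells, a log2 ratio of 2.36 (2.22 to 2.51). Tfap2c, which works with p63, was at -0.22.

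Differentiation genes were higher in the ablated cells. Krtdap and Sbsn, secreted by spinous cells, had log2 ratios of 3.87 and 4.33; Sbsn went from 246 to 4945 CPM. Of 13 early differentiation genes that passed the filter, 10 were 2-fold higher and none lower, against a background of 9.72% higher. The highest was Cnfn, a cornified envelope component, at 8.39, and the lowest Lypd3 at -0.05. Among the 9 of the 13 that were at 20 CPM or more in both libraries, 6 were 2-fold higher.

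Of the 26 terminal differentiation genes, 18 passed the filter, all 2-fold higher. For 16 of these the control was under 20 CPM, so they passed only through the ablated library and had to be higher; the count of 18 is no support in itself. The levels are the observation. Lor, the major cornified envelope protein, stood at 16.3 CPM (14.5 to 18.2) in control and 987 CPM (955.6 to 1020) in ablated cells. Flg, the filament-aggregating protein of the granular layer, went from 0.366 to 790 CPM (7 and 2943 UMIs). The small proline-rich gene Sprr1b went from 0.784 to 2543 CPM, and Tgm1, the crosslinking enzyme of the envelope, from 1.25 to 351 CPM. The lowest ratio of the 18 was that of Cst6, at 4.44, and the highest that of Sprr2d, at 13.52 (11.66 to 16.56), with 2 control UMIs. The Sprr2 genes are close copies of each other, so how their UMIs divide among them is uncertain.

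Barcodes under 1500 UMIs, which hold mostly small cells, debris or free RNA, also carried these transcripts. Over 13561 such control barcodes Lor was at 1285 CPM, and over 7749 ablated ones at 3136 CPM; their median depths were 823 and 1253 UMIs. Immune cells held it at 15.7 and 260 CPM. Sbsn was at 1605 and 2063 CPM in control and ablated immune cells. The part of free RNA in the differentiation genes was not tested. Sbsn differed in the chosen cells (246 and 4945 CPM) by more than in the immune cells, while the control value of the chosen cells lay below that of the immune cells.

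Keratins of wounded epidermis were higher. Krt17 stood at 791 CPM (778.9 to 804) in control and 10660 CPM (10556 to 10766) in ablated cells, a log2 ratio of 3.75. Krt6a went from 51.6 to 6772 CPM and Krt16 from 981 to 7369 CPM, with log2 ratios of 7.04 and 2.91. Krt6b had 0 control UMIs, which allows up to 3, and 5806 CPM after ablation, so it was at least 37028-fold higher. Krt6a and Krt6b are near-identical copies and the division of UMIs between them is uncertain. Of the 14 genes of this list that passed the filter 9 were 2-fold higher and none lower. Through the ablated library alone 7 of the 14 passed, and these could only be higher. Of the 7 at 20 CPM or more in both libraries, 3 were 2-fold higher, with a median log2 ratio of 0.62. Gjb2, a gap junction gene induced in wounds, went from 4.44 to 732 CPM. The integrin chain Itgb6, also of wound edges, was at 0.06 (-0.14 to 0.24).

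**Figure D3:**
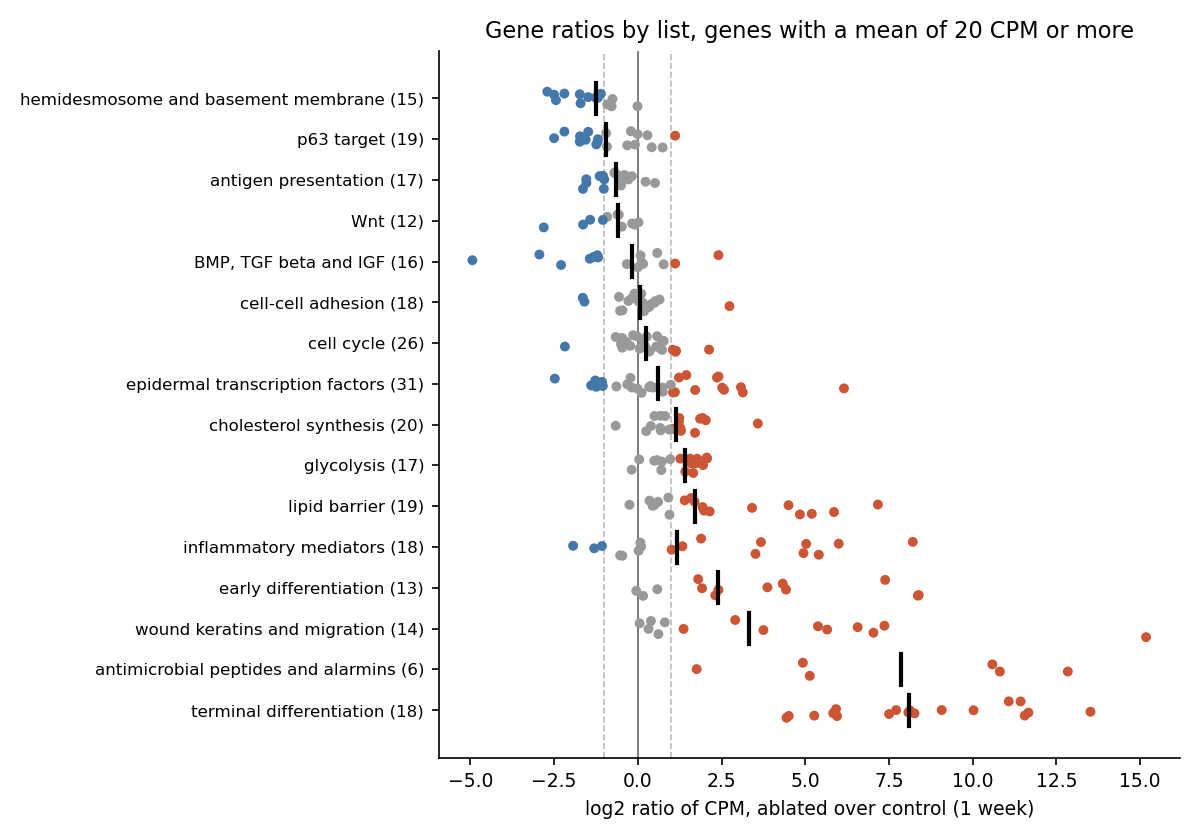
Each point is a gene with a mean of 20 CPM or more, its x position the log2 ratio of CPM in ablated over control cells; rows are gene lists with the number of genes, bars are medians and dashed lines mark 2-fold. Genes with no control UMI (Krt6b, Il1f6, S100a8) are drawn at the lower bound from 3 UMIs. The basement membrane list lies left of 0, with a median of -1.26, and terminal differentiation wholly to the right, with a median of 8.10.

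Inflammatory genes had no common direction. Of 34 genes of the list found in the files, 18 passed the filter; 10 were 2-fold higher and 3 lower. The median log2 ratio was 1.17, but 9 of the 18 passed through the ablated library alone. Among the 9 at 20 CPM or more in both libraries, 1 was higher and 3 were lower, with a median of -0.46. Of the 18, 9 were higher and 0 lower with cells weighted equally. Tslp, a cytokine by which keratinocytes act on dendritic cells and type 2 immunity, stood at 13.5 CPM (11.9 to 15.2) in control and 440 CPM (419 to 461.9) in ablated cells, a log2 ratio of 5.03 (4.84 to 5.22). At 3000 UMIs, 3.33% of control and 16.0% of ablated cells held a Tslp UMI. The control immune cells held 0 Tslp UMIs and the ablated ones 3. Il1f9, which encodes an interleukin 36 cytokine, was at 5.40 and Il18 at 3.68. Il1f6, another interleukin 36 gene, had 0 control UMIs and reached 46.4 CPM after ablation.

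Other mediators had lower or similar levels. Cxcl14, a chemokine made by resting epidermis, stood at 1073 CPM in control and 281 CPM in ablated cells, a log2 ratio of -1.93 that became -0.65 with cells weighted equally. Icam1, the leukocyte adhesion molecule, was at -1.30, or -0.60 with cells weighted equally. The alarmin Il33 was at -0.53, Cxcl16 at -0.46 and Nfkbia, the inhibitor induced by NF-κB, at 0.10. All 6 antimicrobial genes that passed the filter did so through the ablated library alone. They ranged from Defb6 at 1.76 to S100a9 at 12.84 (10.36 to 18.14, with 1 control UMI). Slpi, an inhibitor of serine proteases, had 3 control UMIs and 282 CPM in the ablated cells, a log2 ratio of 10.81 (9.26 to 13.09).

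Of 17 antigen presentation genes, all of which passed the filter, 7 were 2-fold lower and none higher, with a median log2 ratio of -0.66. Of the 15 at 20 CPM or more in both libraries, 6 were lower. The lowest was the class I gene H2-Q7 at -1.64, or -1.08 with cells weighted equally. B2m, the shared class I light chain, stood at 2078 and 1038 CPM, and was short of 2-fold at -0.80 with cells weighted equally. Cd74, the class II chaperone, had the highest ratio at 0.52, and 1.65 with cells weighted equally; by that weighting 2 genes of the list were lower and 3 higher. Langerhans and myeloid markers summed to 254 CPM in control and 285 CPM in ablated cells, and their part in this list was not tested. Of 7 interferon-stimulated genes that passed the filter, 1 was 2-fold lower, Ifi27 at -1.08 (-0.85 with cells weighted equally), and the highest was Ifitm3 at 0.16. Skint9, which passed the filter through the ablated library alone, was at 5.02 and Skint1, which selects dendritic epidermal T cells, at -0.74.

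Growth-related lists gave smaller values, with single genes far from 0. Of 12 EGF family genes that passed the filter, 3 were higher, led by the ligand Ereg at 8.41 (7.53 to 9.48, with 10 control UMIs), while Dusp6 was at -0.88; of the 10 at 20 CPM or more in both libraries, 2 were higher. Of 10 Notch genes, 2 were higher, led by Notch3 at 2.41, and 3 lower, led by the ligand Dll1 at -2.10; of the 8 at 20 CPM or more in both libraries, 1 was higher and 3 were lower. Of 12 Wnt genes, 4 were lower and none higher, but 3 of the 12 passed the filter through the control library alone and 1 of the other 9 was lower; Lgr6, a receptor that marks epidermal progenitors, was at -2.81 from 20 ablated UMIs, or -1.44 with cells weighted equally, and Ctnnb1 was at 0.02. Of 16 genes of BMP, TGF beta and IGF signalling, 7 were lower, with Igfbp3 the lowest, and 2 were higher; of the 13 at 20 CPM or more in both libraries, 6 were lower and 1 higher. Of the 16, 4 were lower and 4 higher with cells weighted equally.

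Many cholesterol synthesis, barrier lipid and glycolysis genes were higher, some of which passed the filter through the ablated library alone. Of 20 cholesterol genes that passed the filter, 11 were 2-fold higher and none lower, with a median log2 ratio of 1.14; of the 16 at 20 CPM or more in both libraries, 7 were higher. Of 19 barrier lipid genes, 12 were higher and none lower, led by the fatty acid binding protein gene Fabp5 at 7.17 (40.2 and 5793 CPM), with Sptlc2 the lowest at -0.25; of the 12 at 20 CPM or more in both libraries, 6 were higher. Of 17 glycolysis genes, 10 were higher and none lower; 15 of the 17 were at 20 CPM or more in both libraries, and 9 of these were higher. Eno1 was the highest at 2.07 and Pfkp the lowest at -0.18. With cells weighted equally, 7, 11 and 8 genes of these 3 lists were 2-fold higher.

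Proteases and their inhibitors included some of the highest ratios. Of 22 kallikrein, serpin and inhibitor genes that passed the filter, 14 were 2-fold higher and 1 lower. Through the ablated library alone 10 of the 22 passed, and these could only be higher. Of the 12 at 20 CPM or more in both libraries, 4 were higher and 1 lower, with a median log2 ratio of 0.40. Klk6, an epidermal serine protease, had 1 control UMI and 5172 ablated UMIs, a log2 ratio of 14.70 with a lower interval bound of 12.22. Serpinb2, an abundant basal serpin here, went from 11011 to 4000 CPM, a log2 ratio of -1.46 (-1.49 to -1.44). Besides genes given above, the 12 higher genes with the interval bound farthest from 0 held Sprr2h, Sprr2e, Rptn, Cstdc5 and Prl2c3. Rptn, a filaggrin-like gene, went from 0.105 to 314 CPM (2 and 1170 UMIs), a log2 ratio of 11.55 (9.70 to 14.60). Prl2c3, a prolactin family gene with close copies, had 0 control UMIs and reached 398 CPM after ablation. Fabp7, a brain-type fatty acid binding protein gene, likewise had no control UMI and stood at 81.9 CPM.

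Stress lists had medians between -0.23 and 0.50. Of 14 heat shock and dissociation genes that passed the filter, 3 were 2-fold higher, led by Ddit4 at 1.91, and Atf4 was the lowest at -0.72. Of 16 AP-1 and immediate early genes, 1 was lower, Fosl1 at -1.74, and Fosl2 was the highest at 0.73. The median of this list was -0.23, and 0.31 with cells weighted equally. Of 15 p53 pathway genes, Pmaip1 was higher at 1.07 and Trp53 lower at -1.28; with cells weighted equally they were short of 2-fold, at 0.65 and -0.95. Among 19 glutathione and oxidative stress genes, 5 were higher and 2 lower, with a median of 0.50; of the 14 at 20 CPM or more in both libraries, 3 were higher and 0 lower. Hmox1 was the highest at 3.51 and Cbr2 the lowest at -3.25. Of 5 mesenchymal genes, Cald1 was the highest at 2.58 and Snai2 the lowest.

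Cells in division were found in both sets. After thinning to 3000 UMIs, 7.67% of control cells (6.67% to 8.77%, 196 of 2555) and 14.3% of ablated cells (10.5% to 18.9%, 41 of 287) held 3 or more UMIs of 12 mitotic genes. Without thinning the shares were 9.59% and 21.6%. Among cells under 20000 UMIs the thinned difference of 6.61 points was 4.01 points, with a lower interval bound of 0.0036. Among immune cells at the same depth they were 14.3% and 22.2%, and among cells that failed only the Krt1 and Krt10 limit 3.37% and 1.18%. The cell cycle list itself, with 26 genes past the filter, had 4 higher and 1 lower; of the 24 at 20 CPM or more in both libraries, 2 were higher. Rrm2, a nucleotide synthesis gene, was the highest at 2.13, and Ccnd2, the D-type cyclin, the lowest at -2.18 (425 and 94.0 CPM). Mki67 was level between the sums, at 143 and 141 CPM.

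Sex-linked genes also differed. Xist, expressed from the inactive X chromosome, stood at 373 CPM in control and 167 CPM in ablated cells, and the Y-linked Ddx3y at 48.6 and 26.0 CPM and Eif2s3y at 40.6 and 37.9 CPM. Xist was short of 2-fold, at -0.93, with cells weighted equally. Both libraries thus held transcripts of both sexes. Whether their share of cells from each sex differed was not tested.

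The spread among ablated cells was wider than in the control for some lists and narrower for others. In cells thinned to 3000 UMIs, the basement membrane list summed to a median of 18 UMIs per control cell (10th to 90th percentile 9 to 30) and 5 per ablated cell (1 to 17). The p63 target list summed to 56 (32 to 76) and 35 (20 to 58.4). For terminal differentiation the medians were 0 (0 to 2) and 15 (0 to 161.2). For wound keratins and migration they were 14 (6 to 28) and 47 (14.6 to 213). The inflammatory list had a median of 12 in both, from 5 to 23 in control and 3 to 29.4 in ablated cells. The 90th percentile of the ablated cells thus lay far above that of the control in the differentiation and wound lists, while the 2 ranges overlapped.

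**Figure D4:**
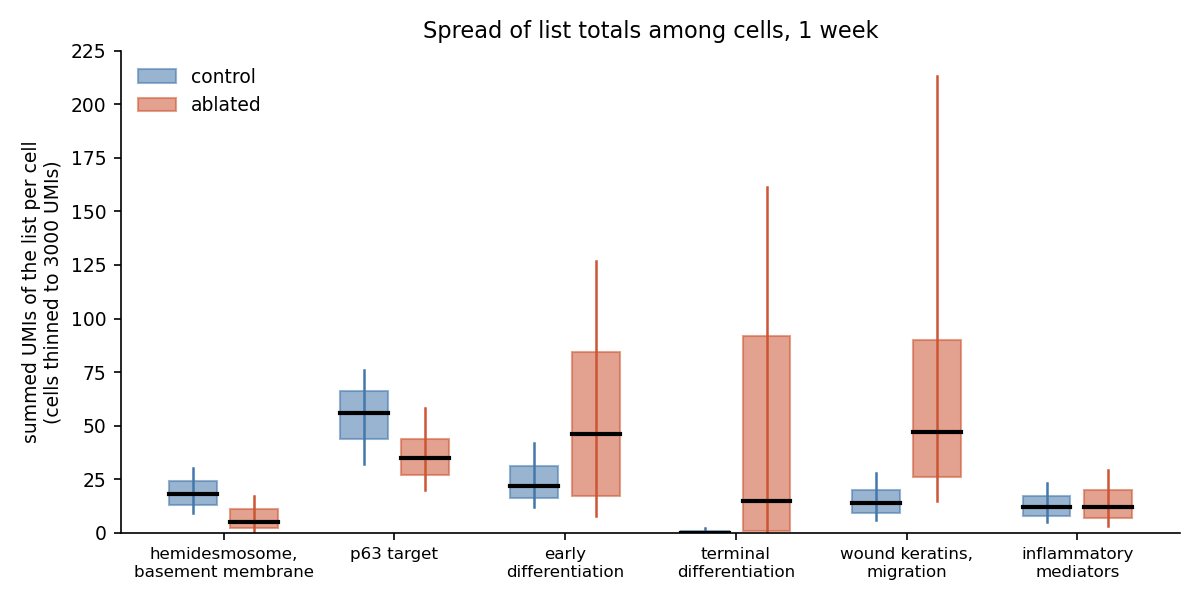
The y axis is the number of UMIs of a gene list in a cell thinned to 3000 UMIs, for 2555 control and 287 ablated cells; boxes span the quartiles, black bars are medians and lines reach the 10th and 90th percentiles. The ablated boxes lie lower for basement membrane genes (medians 18 and 5) and are much taller for terminal differentiation and wound keratins.

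Single genes also varied from cell to cell. Krt15 had a median of 19 UMIs in thinned control cells and 1 in ablated cells, yet 24.0% of ablated cells held 10 or more, against 81.0% of control cells. Col17a1 had medians of 4 and 0, with a 90th percentile of 8 and 3. Krt17 had medians of 1 and 15. Lor was detected in 3.44% of control and 18.5% of ablated cells, and 9.41% of ablated cells held 10 or more Lor UMIs. Lor therefore came from a minority of the ablated cells.

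Each library was divided into 6 subsets by hierarchical clustering of thinned counts, without the genes of the limits. A difference between subsets of 1 library is a description, since the same genes formed them. The largest ablated subset, of 77 cells with a median of 4519 UMIs, had Abi3bp, Krt75, Sox4 and Lhx2 among its leading genes; Krt75 and Lhx2 are known from the hair follicle. It held the most Trp63, at 306 CPM, and the most Krt15, at 5439 CPM, with Sox9 at 937 CPM and Tslp at 7.73 CPM. A control subset of 190 cells was led in part by the same genes (Sox9, Abi3bp and Lhx2), with Sox9 at 474.5 CPM and Trp63 at 547 CPM. The ablated subset that lay closest to the control in Krt15 was thus the one with these follicle genes.

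The second ablated subset, of 72 cells, was led by Pyy, Ifi202b, Edn1 and Cldn4. Col17a1 was highest here among the ablated subsets, at 507 CPM, still below the 824 CPM of the lowest control subset. Itgb4 was at 329 CPM, within the control range of 180 to 436 CPM. Tslp was at 642 CPM, Thbs1, a matrix protein gene of basal cells, at 2968 CPM, and Trp63 at 118 CPM. The terminal differentiation list summed to 15169 CPM in this subset, against 128 to 1583 CPM in the control subsets. Wound keratins and migration summed to 17870 CPM, against 2880 to 6360 CPM. The fourth, of 37 cells, was led by Ube2c, Mki67 and Birc5 and held Col17a1 at 412 CPM and Trp63 at 121 CPM; its summed terminal differentiation level was 1758 CPM. The control subset led by division genes had 162 cells. Another control subset, of 260 cells, was led by Krtdap, Krt10, Sprr1a and Krt1. Its early differentiation list summed to 17286 CPM, against 5080 to 8574 CPM in the other control subsets. It held Col17a1 at 1100 CPM and Trp63 at 417 CPM.

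The other 3 ablated subsets held the lowest basement membrane sums. The third subset, of 50 cells with a median of 31244.5 UMIs, was led by Tchh, Stfa3, Sprr2a3 and Krt6b. It held Krt17 at 17433 CPM, Krt6a at 13929 CPM and Krt14 at 25019 CPM, but Col17a1 at 11.3 CPM, Itgb4 at 17.7 CPM and Trp63 at 43.2 CPM. The fifth, of 33 cells with a median of 3360 UMIs, was led by Lor and Flg2, with Lor at 15525 CPM, Trp63 at 204 CPM, Tslp at 593 CPM, Krt15 at 2316 CPM and Krt5 at 7306 CPM. The sixth, of 18 cells, was led by Rptn, Flg and Klk13; Trp63 was at 10.5 CPM, Krt5 at 639.7 CPM and Krt17 at 23469 CPM. The basement membrane list summed to 664, 1377 and 173 CPM in these 3 subsets, against 3755 to 7813 CPM in the control subsets. Krt14 was at 24314 CPM in the sixth subset, where Krt5 was lowest. The limits act on Krt5 and Krt14 together, so a cell low in Krt5 could be chosen only through its Krt14.

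**Figure D5:**
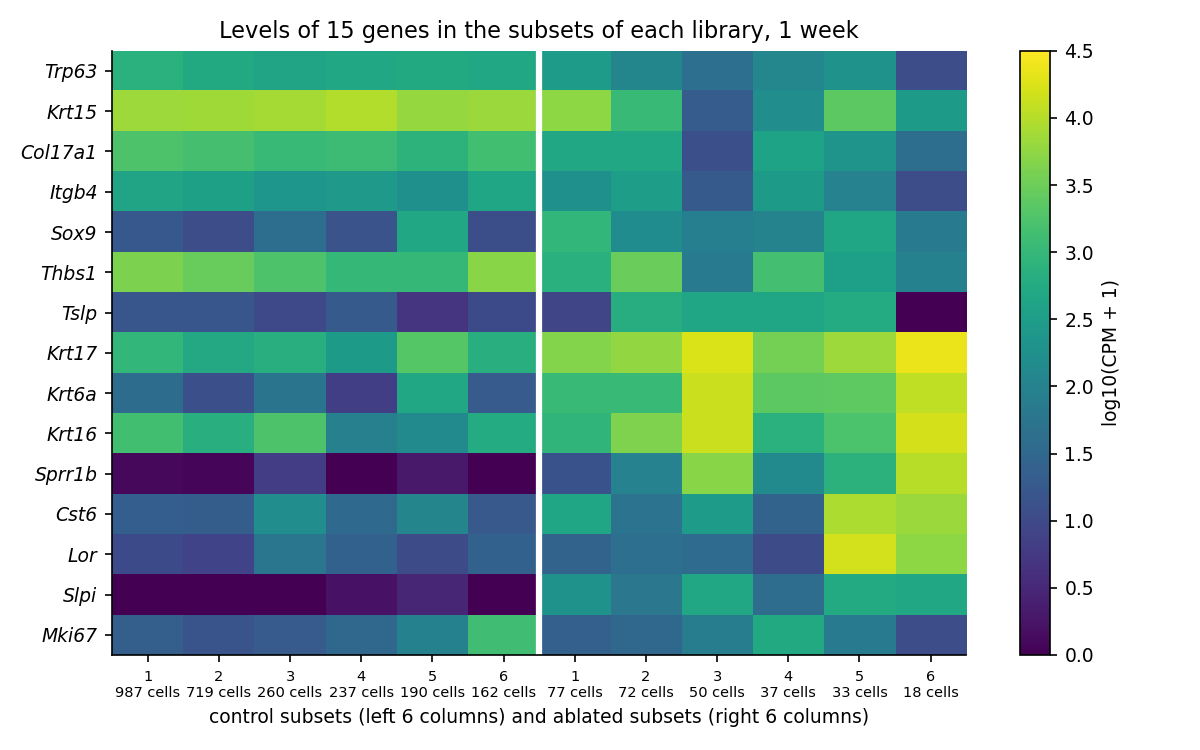
Colour gives log10(CPM + 1) of 15 genes (rows) in 6 control subsets (left) and 6 ablated subsets (right), with the number of cells in each. Trp63, Krt15 and Col17a1 vary little across the control subsets and widely across the ablated ones, where the third and sixth are lowest in Col17a1 and highest in Krt17.

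The 287 ablated cells were also divided by whether any Trp63 UMI was counted. The 151 without one and the 136 with 1 or more had like median depths, of 7958 and 7514 UMIs. Col17a1 stood at 126 CPM without and 424 CPM with a Trp63 UMI, Itgb4 at 75.4 and 258 CPM and Krt5 at 4150 and 8182 CPM. Krt17 was at 12614 and 8387 CPM and Krt8 at 229 and 67.4 CPM. Tslp ran the other way from Krt17, at 275 CPM without and 633 CPM with a Trp63 UMI, as did Lor, at 744 and 1270 CPM, and Krt15 was at 892 and 1087 CPM. Cells with a Trp63 UMI thus lay closer to the control in Col17a1 and Itgb4 and farther from it in Tslp and Lor. A cell with no UMI can still hold the transcript, so these are not 2 kinds of cell.

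Cells that met every other limit and failed 1 or more of the follicle gene and Krt79 limits, 2279 control and 2403 ablated, differed in the same direction by smaller ratios for several genes. Trp63 there stood at 503 and 201 CPM, a log2 ratio of -1.33 (-1.38 to -1.28) against -2.48. Krt15 was at -1.08 (6763 and 3193 CPM) and Col17a1 at -1.34 (986 and 389 CPM). Krt17 was at 1.16, Krt6a at 2.87 and Tslp at 2.71, all below their ratios in the chosen cells, and Igfbp3 at -4.15. Cxcl14 was at 0.03 (0.00 to 0.06) against -1.93. With 1 library in each group these differences between the 2 kinds of cell were not tested. The 174 ablated cells that failed only the Krt8 limit had Trp63 at 57.8 CPM, Col17a1 at 121 CPM and Tslp at 1119 CPM.

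At 1 day the same limits kept 6515 control and 1912 ablated cells, so the ablated set was already the smaller one. Of the 4941 genes that passed the filter there, 230 were 2-fold higher and 62 lower. The values are set beside those of 1 week without a comparison, since the kits differed. Trp63 had a log2 ratio of -1.87 at 1 day and -2.48 at 1 week. Col17a1 was at -1.43 and -2.50, Krt15 at -1.36 and -2.88, and Igfbp3 at -1.86 and -4.94. Tslp was at 4.19 and 5.03, Krt17 at 1.64 and 3.75, and Lor at 1.47 and 5.92. In the basement membrane list 4 of 14 genes were 2-fold lower at 1 day, with a median of -0.51, and in terminal differentiation 15 of 17 genes were higher, with a median of 3.20, a count that the filter favours here too.

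Among 4745 genes that passed the filter at both times, 352 were 2-fold higher at 1 week and 216 at 1 day; 175 were higher at both, which is 49.7% of the first and 81.0% of the second. For the lower genes the numbers were 418 and 57, with 49 in common, which is 11.7% and 86.0%. With only 57 lower genes at 1 day, the share of 11.7% could not be high. The overlaps were not tested, and the kits differed. Of the 4745 genes 1, Nr4a2, was 2-fold or more apart in opposite directions.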

How the data were processed

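Gene-by-cell UMI counts were deposited by the authors as 10x matrices, 1 for each library; Cell Ranger 5.0.1 made them, per the file headers, and the submitters' processing notes also name mm10 and Seurat. The deposited barcode and gene lists index these counts. Of 32285 gene IDs, 32235 were found in GENCODE M21, which gave coordinates and exon sequences. UMIs were summed over the chosen cells of a library and scaled to CPM; mitochondrial genes and genes of the limits were left out of ratios. Levels carry exact Poisson intervals, ratios exact conditional binomial intervals and shares Clopper-Pearson intervals, all at 95% and for counting error only. Depth per library and cell is given in the report. Genes with a mean of at least 20 CPM entered counts. A library at 0 UMIs was set to a floor of 3 UMIs. Ablated over control was compared within each time.

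The cells and the 29 gene lists were chosen with earlier results of these data known. Named were Trp63, the 12 higher and 12 lower genes whose interval bound nearest 0 lay farthest from 0, the highest and lowest gene of each list (some are not reported here), and further members of the lists on adhesion, p63 targets, differentiation, inflammation, transcription factors and wound keratins. Leading genes of subsets, and genes given for subsets or other cells, were named after their values were seen. Subsets came from Ward clustering of cells thinned to 3000 UMIs. Ratios and intervals were tested on simulated Poisson sums. These hold no variation between cells, so they could not show how the intervals fare with it. Tools were Python 3.11.15, numpy 2.4.6, scipy 1.17.1, pandas 2.3.3, scanpy 1.11.5 with Scrublet for doublet scores, matplotlib 3.10.9 and, for TMM factors alone, edgeR 4.0.16 in R 4.3.3. The alternatives tried were other cell limits, weighting, scaling, filters, thinning and doublet removal.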

Additional observations from a re-analysis of the deposited data

Results flagged for a closer look

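Nr4a2, an immediate early transcription factor of the orphan nuclear receptors, differed in opposite directions at the 2 times. At 1 week it stood at 46.8 CPM in control and 18.0 CPM in ablated cells, a log2 ratio of -1.38 (95% counting interval -1.76 to -1.02), from 896 and 67 UMIs. At 1 day it stood at 20.1 and 44.8 CPM, a log2 ratio of 1.15 (0.97 to 1.33). With cells weighted equally the 1-week ratio was -0.76. The kits differed between the times, each group was 1 library, and the difference was not tested.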

How the results depend on the processing

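No paired analysis was possible because the labels give no replicate numbers and each group is 1 library; for the same reason no library could be left out. The alternatives of cells under 20000 UMIs and follicle limits per 10000 UMIs were chosen after seeing the data. Trp63 and the basement membrane and terminal medians kept their direction under every alternative run. For the terminal median this carries little weight, since 16 of its 18 genes passed the filter through the ablated library alone. The medians of simple keratins, interferon, cell cycle, AP-1, Notch, BMP, mesenchymal, Skint and cell-cell adhesion genes changed sign under at least 1. The Trp63 log2 ratio of -2.48 was -1.81 with cells weighted equally, -2.69 at 5000 or more UMIs, -2.79 without the Krt8 limit, -1.96 under 20000 UMIs and -2.83 with follicle limits per 10000. The 553 higher genes became 292 at a mean of 50 CPM and 5599 with no filter. The 481 lower genes became 254 with cells weighted equally, 263 at 50 CPM, 1512 with no filter and 222 under 20000 UMIs. TMM scaling moved all log2 ratios by -0.108 and gave 486 higher and 618 lower genes. The 287 ablated cells became 188 at 5000 UMIs and 461 without the Krt8 limit. The basement membrane median was -0.999 with cells weighted equally, -1.04 without the Krt8 limit and -0.95 under 20000 UMIs. The terminal differentiation median was 7.29 with cells weighted equally, 8.66 without high doublet scores, 8.79 at a keratin ratio of 4, 6.95 with no filter and 7.05 under 20000 UMIs. The inflammatory median was 0.51 with cells weighted equally and the filter applied to those means, 1.49 without high doublet scores, 0.89 without the Krt8 limit, 0.077 at 50 CPM, 0.89 with no filter, 0.53 under 20000 UMIs and 0.45 with follicle limits per 10000. The difference in dividing cells, 6.61 points, was 4.01 points (lower interval bound 0.0036) under 20000 UMIs, 12.01 points unthinned and 11.98 points with follicle limits per 10000. At 1 day, 2481 control and 515 ablated cells held 5000 UMIs, and 3498 ablated cells remained without the Krt8 limit; doublet removal was not run there. The cause of these shifts was not tested. All 98 named genes at 2-fold or more kept their direction under the alternatives run, and 77 stayed at 2-fold or more under each. The others were B2m, Birc5, Bmp7, Cxcl14, Fermt1, Fgfr2, H2-Q7, Hopx, Icam1, Ifi27, Itga6, Itgb1, Itgb4, Lama3, Nr4a2, Pmaip1, Satb1, Thbs1, Trp53, Xist and Zfp750. The 287 ablated cells limit shares, and 1 library a group leaves differences between animals unmeasured.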
